A study of Homo sapiens with 5 samples.

Results

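This report describes 10 genes of secreted and membrane-bound serine proteolysis in SW480 cells grown in zebrafish. They are the trypsinogen genes PRSS1, PRSS2 and PRSS3, the kallikrein genes KLK6, KLK7, KLK8 and KLK10, the membrane protease matriptase (ST14) and its inhibitors SPINT1 and SPINT2. The genes were taken by symbol from the 21199 human genes listed in any library. They were selected on the rise of PRSS2 and the fall of KLK6 from 1 to 4 days post injection (dpi), so their changes between the time points are given below as a description, without a test. All 10 symbols were found. KLK8 was listed in 4 of the 5 libraries, and the other members in all 5.

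SW480 is a human colorectal cancer cell line from a primary tumor. The parental cells carried a GFP transgene introduced with a lentivirus and were injected into zebrafish embryos. Tumors were dissected at 1 dpi or 4 dpi, mixed as a pool of many tumors, dissociated, and sorted by FACS at 1 cell per well into 384-well plates for SORT-seq, which counts polyadenylated RNA by its 3′ end with unique molecular identifiers (UMIs). The groups share the cell line, its transgene and the host, and differ in the time after injection. By the design, tumors at 1 dpi should still hold every clone, and tumors at 4 dpi the clones that were not cleared. In pooled sums a smaller share of cells with a gene and fewer molecules per cell cannot be told apart, so shares of positive cells are given beside the levels. A plate is a library, and the labels number them 6, 7 and 8 at 1 dpi and 10 and 11 at 4 dpi.

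The 826 cells with more than 2000 genes and under 25% mitochondrial UMIs were used, 533 from 1 dpi and 293 from 4 dpi. They held between 4785899 and 7510250 UMIs per library at 1 dpi, and 3794315 and 3965446 UMIs at 4 dpi. The median cell had between 18836 and 36219.5 UMIs, depending on the library. Levels are given in CPM, the UMIs of a gene per 1000000 UMIs of all genes over the passing cells of a library. The 14 epithelial markers on the list used to check the label summed to 4988 to 6146 CPM at 1 dpi and 5111 to 5272 CPM at 4 dpi. KRT8 was the highest, at up to 2419 CPM, and 10 of the 14 exceeded 10 CPM in at least 1 library. KRT20, CEACAM5 and LGALS4 peaked at 1.51, 2.23 and 3.97 CPM, and CDX1 had 1 UMI in all. Of the 14 leukocyte markers 11 were listed, and they summed to 16.5 to 23.6 CPM at 1 dpi and 8.17 and 9.08 CPM at 4 dpi. ITGAM was the highest of them, at 10.8, 12.1 and 7.94 CPM in libraries 6, 7 and 8 and 1.765 and 1.845 CPM in libraries 10 and 11. TYROBP and MPEG1 were at 0. Of the 11 stroma and endothelium markers 10 were listed, and they summed to 25.3 to 29.3 CPM at 1 dpi and 35.1 and 46.7 CPM at 4 dpi. LUM was the highest of these, at 21.4, 21.7 and 23.8 CPM in libraries 6, 7 and 8 and 27.5 and 25.3 CPM in libraries 10 and 11. COL1A1 was at 1.465, 4.09 and 2.72 CPM and at 16.6 and 7.12 CPM in the same order. Plates of a time point may share a pool of tumors, in which case the spread between libraries is technical.

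Serine proteases of the trypsin fold cut proteins after chosen residues and are made as inactive proenzymes. Trypsinogens are best known from the exocrine pancreas, where enteropeptidase in the gut activates cationic (PRSS1) and anionic (PRSS2) trypsinogen. PRSS3 encodes mesotrypsinogen, a minor form whose enzyme resists many trypsin inhibitors. Tissue kallikreins are encoded by a gene cluster on chromosome 19, are secreted by many epithelia, and can activate each other. Matriptase is an epithelial type II transmembrane protease that is kept in check by the Kunitz-type inhibitors HAI-1 (SPINT1) and HAI-2 (SPINT2).

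In GENCODE v44 on hg38, the build named in the submitters' processing notes, PRSS1 lies at chr7:142749468-142753072 and PRSS2 at chr7:142760398-142774564, both on the plus strand and separated by 7325 bp. PRSS3 lies at chr9:33750679-33799231. The 4 kallikrein members lie on the minus strand of chromosome 19, KLK6 at 50958631 to 50969673 and KLK10 at 51012739 to 51020175, within 61545 bp. KLK8 shares bases with KLK9 on the same strand, so reads of these genes may be hard to tell apart. PRSS2 spans the pseudogene PRSS3P1. ST14 lies at chr11:130159782-130210362, SPINT1 at chr15:40844018-40858207 and SPINT2 at chr19:38244035-38292615.

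The trypsinogen transcripts are close copies, which matters for every value of PRSS1 below. The coding sequences are each 744 bases long. That of PRSS2 is the same as PRSS1 at 92.9% of positions and the same as PRSS3 at 93.3%. Of the 750 windows of 60 bases in the PRSS2-201 transcript, the length of the mapped read, 55 (7.33%) occur unchanged in a transcript of another gene (PRSS1, PRSS3 or PRSS3P1). For PRSS1-201 the share is 1.20% and for PRSS3-203 it is 0.534%. A median of 4 bases separates PRSS2 from PRSS1 in a coding window of that length, so how the authors' alignment placed reads with a sequencing error is uncertain. In the last 120 coding bases, toward the 3′ end, PRSS1 differs from PRSS2 at 9 positions and PRSS3 at 6.

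Promoter windows of the trypsinogens are shown because PRSS2 and PRSS1 are compared cell by cell further on. RefSeq windows (GRCh38.p14) were matched for 7 of the 10 members, and KLK8, ST14 and SPINT2 had no entry. The 250 bases before the transcript start are shown for the trypsinogen genes, PRSS2 at chr7:142770720-142770969, PRSS1 at chr7:142749222-142749471 and PRSS3 at chr9:33795311-33795560, all on the plus strand. Capitals mark matches on either strand to TATAAA (an element near many start sites), TGGGAA (a core of the RBPJ motif of Notch signaling) and TGANTCA (an AP-1 motif), none of which overlap.

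PRSS2: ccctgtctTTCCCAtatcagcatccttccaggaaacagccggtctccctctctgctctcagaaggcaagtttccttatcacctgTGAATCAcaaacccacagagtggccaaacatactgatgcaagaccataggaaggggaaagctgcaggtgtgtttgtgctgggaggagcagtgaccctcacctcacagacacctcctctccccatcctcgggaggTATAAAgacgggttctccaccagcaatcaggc
PRSS1: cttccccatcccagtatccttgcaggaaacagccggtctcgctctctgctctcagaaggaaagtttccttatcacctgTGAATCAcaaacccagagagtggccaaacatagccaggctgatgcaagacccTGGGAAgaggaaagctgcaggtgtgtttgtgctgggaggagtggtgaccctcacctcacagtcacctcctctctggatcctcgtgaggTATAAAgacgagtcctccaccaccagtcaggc
PRSS3: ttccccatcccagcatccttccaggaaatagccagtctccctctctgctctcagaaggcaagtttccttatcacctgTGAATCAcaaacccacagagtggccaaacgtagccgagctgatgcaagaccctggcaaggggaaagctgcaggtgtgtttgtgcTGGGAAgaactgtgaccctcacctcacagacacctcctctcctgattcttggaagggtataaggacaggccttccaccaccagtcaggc

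PRSS2 and PRSS1 have TATAAA starting 32 bases before the transcript start, and PRSS3 has no match there. Each of the 3 holds 1 match to TGANTCA, starting 166, 172 and 173 bases before the start in PRSS2, PRSS1 and PRSS3. Each also holds 1 match to TGGGAA, but at 242, 120 and 89 bases in the same order. None held CTTTGA, a core of the TCF/LEF motif of Wnt signaling. Of the 35116 RefSeq windows of this length, 10.7% hold TATAAA, 20.8% TGGGAA, 6.57% TGANTCA and 11.2% CTTTGA. The KLK6 window and the 3 KLK7 windows held none of the 4 motifs, and 1 of the 2 KLK10 windows held 2 matches to TGGGAA. A match is a string of letters and no measurement of binding.

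PRSS2 had the largest change of the 8 genes with enough UMIs to be fitted. Its level was 5.73, 4.27 and 17.6 CPM in libraries 6, 7 and 8 of 1 dpi and 149 and 202 CPM in libraries 10 and 11 of 4 dpi. These were 43, 23 and 84 UMIs against 589 and 766. Every 4 dpi library stood above every 1 dpi library. The mean was 9.18 ± 7.28 CPM (SD, n = 3) at 1 dpi and 175 ± 37.8 CPM (SD, n = 2) at 4 dpi, a log2 change of 4.31 ± 0.29 (SE, edgeR). The value of library 8 rests on 1 cell, which held 71 of its 84 PRSS2 UMIs and also 13 of its 21 PRSS1 UMIs. Without each library's cell with the most PRSS2 UMIs, an alternative chosen after the data had been seen, the levels were 4.41, 2.86 and 2.75 CPM against 122 and 161 CPM, and the log2 change was 5.31.

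PRSS2 was spread unevenly over cells at both times. At 4 dpi it had a UMI in 43.9% of 132 cells of library 10 (exact 95% confidence interval 35.3 to 52.8%) and in 48.4% of 161 cells of library 11 (40.5 to 56.4%). If the same UMIs had been spread over the cells in proportion to their depth, 92.3% and 92.7% of cells would have had one. Of the 293 cells of 4 dpi, 157 had no PRSS2 UMI, 50 had 1, 57 had 2 to 9, and 29 had 10 or more. Those 29 cells held 1090 of the 1355 PRSS2 UMIs (80.4%), and 4 of them had over 100 UMIs each. In the cell with the most, PRSS2 took 161 of 30429 UMIs, or 5291 CPM. Intervals here cover counting error only.

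At 1 dpi PRSS2 was already present in a few cells. It had a UMI in 8.77%, 7.04% and 6.13% of the cells of libraries 6, 7 and 8, where depth alone would have given 16.6%, 14.6% and 37.3%. Of the 40 positive cells among 533, 24 had 1 UMI and 2 had 10 or more. With every cell thinned to 10000 UMIs and the 73 cells of 1 dpi and 52 of 4 dpi below that depth left out, the shares were 2.59%, 2.38% and 4.96% at 1 dpi and 35.6% and 37.4% at 4 dpi. At equal depth the shares of the time points still did not overlap. In wells with under 200 genes, a measure of stray RNA, 4 of 157 at 4 dpi (2.55%) had a PRSS2 UMI, at a median of 183 UMIs of all genes per well. At 1 dpi 0 of 330 such wells had one, at a median of 67 UMIs, which allows a share of up to 0.909% (3 counts).

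**Figure D1:**
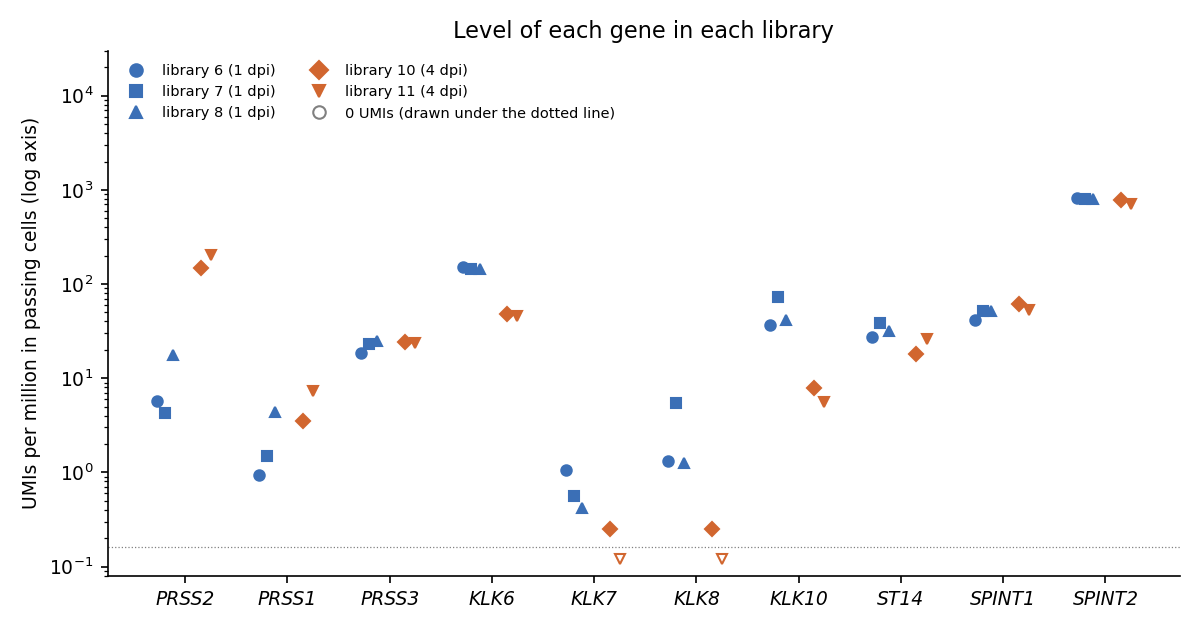
Level of the 10 genes in each of the 5 libraries, in CPM over passing cells on a log axis; blue symbols are the 3 libraries of 1 dpi, orange symbols the 2 libraries of 4 dpi, and open symbols under the dotted line are 0 UMIs. PRSS2 lies at 4.27 to 17.6 CPM at 1 dpi and at 149 and 202 CPM at 4 dpi, KLK6 and KLK10 are lower in both 4 dpi libraries, and PRSS3 and SPINT2 stay close.

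PRSS1, cationic trypsinogen, was scarce. Its level was 0.932, 1.49 and 4.39 CPM at 1 dpi and 3.53 and 7.38 CPM at 4 dpi, which is 7, 8 and 21 UMIs against 14 and 28. The times overlap, since library 8 stood above library 10. The log2 change was 1.33 ± 0.53 (SE). Few cells carried it: 12 of 533 at 1 dpi and 14 of 293 at 4 dpi had a UMI, and 1 cell of library 11 held 15 of that library's 28.

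For each 100 PRSS2 UMIs PRSS1 had 16.3, 34.8 and 25 UMIs in the 1 dpi plates (6, 7 and 8) but 2.38 and 3.66 in those of 4 dpi (10 and 11). The rise of PRSS2 that chose the genes sets the direction of this ratio, so it is a description, and that of library 8 rests largely on 1 cell. At 4 dpi PRSS1 sat mostly in the cells that held PRSS2. There, 11 of the 14 PRSS1-positive cells (78.6%) had a PRSS2 UMI, against 125 of the 279 others (44.8%), and 39 of the 42 PRSS1 UMIs were in PRSS2-positive cells. At 1 dpi the counts were 3 of 12 cells (25%) against 37 of 521 (7.10%), and 19 of 36 PRSS1 UMIs were in PRSS2-positive cells, 13 of them in the top cell of library 8. Whether misplaced PRSS2 reads supplied some of the PRSS1 UMIs was not tested.

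PRSS3, mesotrypsinogen, was the even one of the trypsinogens. Its level was 18.5, 22.9 and 24.7 CPM at 1 dpi and 24.0 and 23.7 CPM at 4 dpi, with a log2 change of 0.10 ± 0.18 (SE). The 4 dpi libraries lie inside the range of the 1 dpi libraries. A UMI was present in 31.7 to 40.8% of the cells of a library, and no cell had more than 9. Depth alone would give 39.0 to 52.8%, more than was seen in every library.

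Because trypsinogens are made in quantity by the pancreas, 25 genes of exocrine pancreas enzymes and secretory proteins were checked. Of these, 16 had a UMI, and their summed level was 10.3 to 13.8 CPM at 1 dpi and 10.1 and 11.3 CPM at 4 dpi. AMY2B, an amylase gene, was the highest at 5.64 CPM in library 8. Chymotrypsin genes CTRB2 and CTRC had 10 and 11 UMIs at 1 dpi and 0 at 4 dpi, and the lipase PNLIP had 1 UMI in all. In the 136 cells of 4 dpi with a PRSS2 UMI the list summed to 12 CPM, and in the 157 without to 9.11 CPM. The defining enzymes of pancreatic acinar cells were thus at or near 0 in these libraries.

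KLK6, a kallikrein with trypsin-like activity, had the steadiest level within a time point among the changed genes. It stood at 152, 143 and 144 CPM in libraries 6, 7 and 8 and at 47.7 and 45.3 CPM in libraries 10 and 11. The time points do not overlap. The mean was 147 ± 5.02 CPM (SD, n = 3) at 1 dpi and 46.5 ± 1.65 CPM (SD, n = 2) at 4 dpi, a log2 change of -1.68 ± 0.11 (SE).

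KLK6 was broadly present at 1 dpi. It had a UMI in 78.1%, 82.4% and 76.1% of the cells of libraries 6, 7 and 8, and in 54.5% and 44.1% of those of libraries 10 and 11. Depth alone would have given more in every library, with 92.9%, 93.8% and 91.1% at 1 dpi and 67.8% and 57.8% at 4 dpi. After thinning to 10000 UMIs the shares were 66.3%, 56.3% and 58.9% against 36.4% and 31.7%. Cells with 10 or more KLK6 UMIs numbered 82 of 533 at 1 dpi and 5 of 293 at 4 dpi. The fall was thus seen both in the share of positive cells and in the number of cells with many UMIs. In wells with under 200 genes, KLK6 had 3 UMIs at 1 dpi and 0 at 4 dpi.

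KLK10 fell the most of the kallikreins that could be fitted. Its level was 36.9, 72.1 and 41.8 CPM at 1 dpi and 7.82 and 5.54 CPM at 4 dpi, with a log2 change of -2.92 ± 0.31 (SE). The times do not overlap, and library 7 stood above the other libraries of 1 dpi. KLK10 was uneven over cells: in library 7 it was seen in 47.9% of cells where depth alone would give 84.0%, and 10 cells held 67.0% of its UMIs there. Positive cells fell from 189 of 533 to 20 of 293.

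KLK7 and KLK8, kallikreins known from the skin, were near the limit of detection. KLK7 had 8, 3 and 2 UMIs at 1 dpi and 1 and 0 at 4 dpi, and KLK8 had 10, 29 and 6 UMIs at 1 dpi and 1 and 0 at 4 dpi. In library 11, 0 UMIs allow up to 0.791 CPM (a floor of 3 counts). The ratio of the pooled level at 4 dpi to that at 1 dpi was 0.0506 for KLK8 (exact 95% interval 0.00125 to 0.297, counting error only) and 0.175 for KLK7 (0.00412 to 1.17). The interval of KLK7 includes 1. These intervals treat every UMI as independent, and the genes were selected on this contrast, so neither interval is read as a test. One cell of library 7 held 14 of its 29 KLK8 UMIs. Neither gene passed the filter for testing. All 10 cells with a KLK7 UMI and all 20 with a KLK8 UMI at 1 dpi also had KLK6, against 78.2% and 77.8% of the other cells, though the KLK7- and KLK8-positive cells were deeper (medians of 69022 and 43744.5 UMIs against 30783 and 30618).

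The rest of the kallikrein cluster was mostly near the limit of detection. Of the 11 other genes from KLK1 to KLK15, KLK1 and KLK11 had enough UMIs for the test. KLK11 was at 26.1, 27.9 and 33.0 CPM at 1 dpi and 3.78 and 6.06 CPM at 4 dpi, and fell by 2.58 ± 0.24 (SE) on the log2 scale (adjusted p = 2.64e-06, edgeR quasi-likelihood test with Benjamini-Hochberg adjustment over all genes tested). KLK1, tissue kallikrein, was at 10.5, 7.80 and 10.9 CPM at 1 dpi and 13.9 and 9.49 CPM at 4 dpi (log2 0.24, adjusted p = 0.508) and was named after its values were seen. KLK3 had 17 UMIs at 1 dpi, and the others of the 11 had fewer. KLK6, KLK10 and KLK11 thus moved in the same direction, and KLK1, in the same cluster, did not pass the test.

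ST14 encodes matriptase, which can activate protease and growth factor precursors at the cell surface. Its level was 27.4, 38.8 and 31.3 CPM at 1 dpi and 18.2 and 26.4 CPM at 4 dpi, with a log2 change of -0.57 ± 0.19 (SE). The times do not overlap, but library 6 stood only just above library 11. The change moved to -0.33 without library 10 and to -0.85 without library 11. ST14 was spread over cells nearly as depth would have it, with a UMI in 35.6 to 62.0% of cells.

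SPINT1 and SPINT2, the inhibitors of matriptase, kept their level more closely. SPINT1 was at 41.9, 51.1 and 51.4 CPM at 1 dpi and at 61.5 and 53.0 CPM at 4 dpi, a log2 change of 0.23 ± 0.13 (SE). SPINT2 was at 821, 807 and 801 CPM at 1 dpi and at 781 and 706 CPM at 4 dpi, a log2 change of -0.15 ± 0.09 (SE). SPINT2 had a UMI in every cell of 1 dpi and in 289 of 293 cells of 4 dpi. For both genes the libraries of the time points do not overlap.

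Among all genes, 27.6% of 12610 tested were called between the times at an adjusted p below 0.05, and 54.2% had libraries that did not overlap between the times. Of the 8 members in the fit, PRSS2 was called higher, KLK6, KLK10 and ST14 were called lower, and PRSS1, PRSS3, SPINT1 and SPINT2 were not called. KLK7 and KLK8 were not in the fit. Of all 10 members, 8 had libraries that did not overlap. Since the members were selected on this contrast, nothing is read from these counts.

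**Figure D2:**
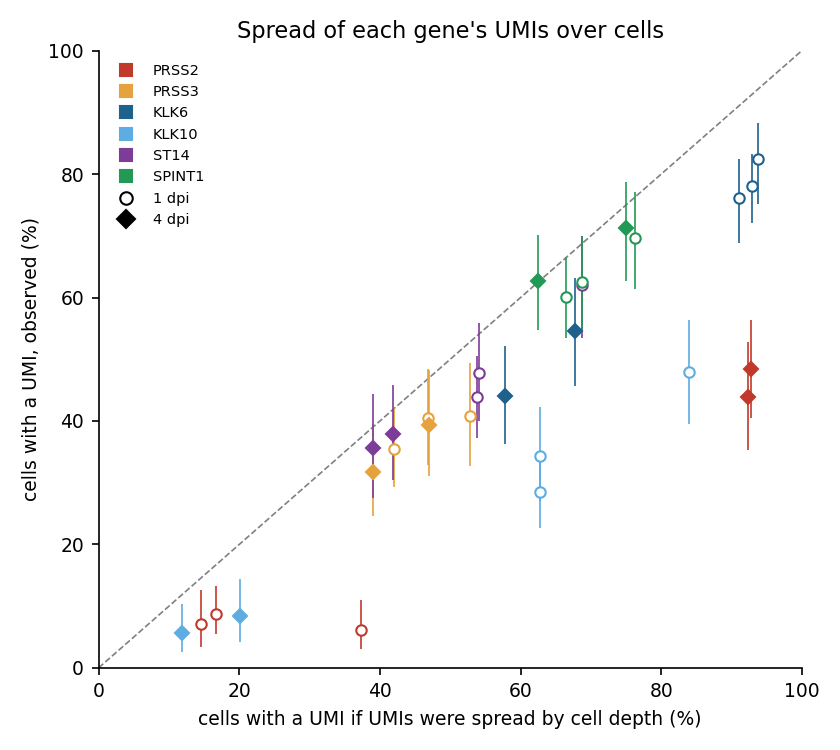
Share of cells with at least 1 UMI of a gene in each library (vertical axis, %, with exact 95% binomial intervals) against the share that would result if the gene's UMIs were spread over the cells by depth alone (horizontal axis, %); open circles are 1 dpi, filled diamonds 4 dpi, and the dashed line is equality. ST14, SPINT1 and PRSS3 lie near the line but mostly under it, while PRSS2 at 4 dpi (43.9% and 48.4%) and KLK10 at 1 dpi lie far under it.

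Other genes of extracellular proteolysis were taken from lists, which were chosen with earlier results of these data known. Of the serine proteases of the cell surface and the secreted space outside the members, 20 were tested, 2 rose and 5 fell. PRSS22, a secreted tryptase-like protease, fell from 19.6 ± 1.66 to 3.74 ± 0.0657 CPM (log2 -2.40, adjusted p = 1.00e-05). The complement proteases C1R (log2 -2.08, adjusted p = 0.000816) and C1S (log2 -1.69, adjusted p = 0.000259) also fell. The genes that rose, named after their values were seen, were PRSS16 (log2 0.85, adjusted p = 0.0126) and TMPRSS2 (log2 0.65, adjusted p = 0.0142). The median log2 change over the 20 genes was -0.03, against 0.0019 over all genes tested, beside a called share of 35% against 27.6% of all genes.

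Of the plasminogen and coagulation proteases and their partners, 10 were tested, none rose and 7 fell. PLAUR, the urokinase receptor, fell from 183 ± 71.1 CPM (SD, n = 3) to 37.7 ± 3.73 CPM (SD, n = 2), with a log2 change of -2.30 (adjusted p = 1.61e-05). PLAU, urokinase itself, had a log2 change of -1.96 (adjusted p = 0.00508) and also fell. The median log2 change of the list was -0.64, and 70% of its 10 tested genes were called, against 27.6% of all genes.

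Of the other serine protease inhibitors, 15 were tested, 1 rose and 4 fell, with a median log2 change of -0.33 and a called share of 33.3% against 27.6% of all genes. SERPINB5 (maspin) fell from 111 ± 21.4 to 42.7 ± 1.15 CPM (log2 -1.40, adjusted p = 1.60e-05), SERPINB8 from 71.4 ± 7.60 to 27.8 ± 4.60 CPM (log2 -1.38, adjusted p = 1.21e-05) and SERPINA1, alpha-1-antitrypsin, from 36.9 ± 8.92 to 15.7 ± 7.23 CPM (log2 -1.25, adjusted p = 0.00181). SERPINH1, a collagen chaperone of the serpin family named after its value was seen, rose (log2 0.93, adjusted p = 0.00194). Of the receptors and substrates of these proteases, 18 were tested, 2 rose and 6 fell, with a median log2 change of -0.26 and a called share of 44.4%. LAMA3, a laminin chain (log2 -1.54, adjusted p = 7.33e-07), fell, as did TFRC, the transferrin receptor (log2 -1.30, adjusted p = 3.11e-07). The genes that rose, also named after their values were seen, were the desmosome gene DSC2 (log2 0.82, adjusted p = 0.00139) and EPCAM (log2 0.25, adjusted p = 0.0429). Of 2 tested pancreas enzyme genes, none was called.

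The members were next compared between cells of the same library, a contrast that the selection rule did not use. The members and the lists were still chosen with earlier results of these data known. The KLK6 and PRSS2 groups were each made at the time point where that gene was higher. In each comparison UMIs were summed per library and group of cells and tested with the library as a block. There were 5 such comparisons and 36 tests of members, of which 9 were called. Over all genes the called shares were 16.0%, 48.4%, 27.8%, 0.114% and 13.8%, in the order given below, so nothing is read from this count. The groups and all genes tested are given with each comparison.

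The cell cycle comparison set cells above the median of their library for 95 S and G2/M phase genes against the other cells of all 5 libraries. Of 11661 genes, 16.0% were called. PRSS1 was the 1 member called of 8 tested, and was lower in the cycling cells (log2 -1.66 ± 0.48, adjusted p = 0.0198). Its UMIs were 3, 0, 13, 1 and 8 in the high group and 4, 8, 8, 13 and 20 in the low group of libraries 6, 7, 8, 10 and 11. The level was lower in the high group of every library but library 8, where it was 4.43 against 4.32 CPM. Single cells weighed heavily: the top PRSS1 cells of libraries 7, 10 and 11, with 4, 7 and 15 UMIs, were in the low group. In library 8 the top cell, with 13 UMIs, was in the high group. The call was lost without library 7, 10 or 11 (adjusted p of 0.0606, 0.0816 and 0.0693, edgeR). It was also lost between the outer tertiles of the score (log2 -1.58, adjusted p = 0.1035). PRSS1 had no test here without each library's top PRSS1 cell, with thinned cells or without the library block, so its call was not checked in these ways.

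No other member was called by cell cycle. PRSS3 was lower by 0.42 ± 0.15 (SE) on the log2 scale in cycling cells and missed the threshold (adjusted p = 0.0534), which it passed between outer tertiles (-0.64, adjusted p = 0.0107) and without the top PRSS3 cells (0.0376). SPINT1 also passed between outer tertiles (-0.50, adjusted p = 0.0136). KLK6 had a log2 difference of 0.11 (adjusted p = 0.539) and KLK10 of -0.11 (adjusted p = 0.806). PRSS2 had a log2 difference of -0.30 (adjusted p = 0.574), but its libraries disagreed: library 11 had 104 CPM in the high and 331 CPM in the low group, and library 10 had 161 and 133 CPM. The change of the difference between the time points was tested as an interaction, which called 0.592% of all genes and no member. In that test PRSS2 had the smallest adjusted p of the 8 members at 0.451 (log2 -1.38 ± 0.63).

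The Notch comparison split the cells of 1 dpi by 7 Notch effector genes of the HES and HEY families with NRARP. It called 48.4% of 11553 genes, so a call is common here. Of the calls 51.4% were higher with TMM scaling and 67.6% with library totals alone, an alternative chosen after the data had been seen, and the median difference of all genes shifted by 0.16. KLK6 was at 148, 125 and 131 CPM in the high group and at 158, 164 and 161 CPM in the low group of libraries 6, 7 and 8. It was lower in the high group in 3 of 3 libraries (log2 -0.41 ± 0.10, adjusted p = 0.000291). With every cell thinned to 5000 UMIs the difference was 0.06 (adjusted p = 0.838), and with cells under 15% mitochondrial UMIs it was -0.25 (adjusted p = 0.0610). Median depth was 30104 UMIs in the high and 21773 in the low group of library 8, the median mitochondrial share was 10.1% against 14.5% in library 6, and their part in the result was not tested further.

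KLK10 went the other way in this comparison. It was at 49.2, 86.8 and 40.8 CPM in the high group and 22.4, 55.3 and 42.9 CPM in the low group, higher in 2 of 3 libraries (log2 0.45 ± 0.14, adjusted p = 0.00808). The call was lost with DESeq2 (adjusted p = 0.190), with thinned cells (0.494), with cells under 15% mitochondrial UMIs (0.0941), without the library block (0.174), and without library 6 or 7 (0.273 and 0.0645). PRSS3 was lower in the high group (log2 -0.53 ± 0.19, adjusted p = 0.0149), at 14.5, 23.4 and 20.6 CPM against 23.2, 22.3 and 29.5 CPM. Its direction held in 2 of 3 libraries, and the call was lost with DESeq2 (adjusted p = 0.202), with library totals alone (0.0956), with thinned cells (0.829, log2 -0.15), with cells under 15% mitochondrial UMIs (0.0816), between outer tertiles of the score (0.0637), without the top PRSS3 cells (0.0597) and without library 6 or 8 (0.262 and 0.0962).

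PRSS2 was at 4.42, 4.18 and 1.15 CPM in the Notch-high group and at 7.26, 4.38 and 37.4 CPM in the low group (log2 -2.03 ± 0.39, adjusted p = 1.28e-05). The low group of library 8 contains the cell with 71 PRSS2 UMIs. Without each library's top PRSS2 cell the difference was -1.01 (adjusted p = 0.0762), and without library 8 it was -0.63 (adjusted p = 0.267). DESeq2 gave an adjusted p of 0.273. ST14, SPINT1 and SPINT2 were not called (adjusted p of 0.701, 0.116 and 0.136), although SPINT1 passed under 15% mitochondrial UMIs and between outer tertiles (0.0342 and 0.0436, edgeR) and SPINT2 without library 6 (0.0434).

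The Wnt comparison split the cells of 4 dpi by 11 Wnt feedback genes such as AXIN2, NKD1 and LGR5. It called 27.8% of 10903 genes. Of the calls 46.4% were higher with TMM scaling and 30.1% with library totals alone, where the median difference of all genes shifted by -0.14. PRSS2 was at 251 and 234 CPM in the high group of libraries 10 and 11 and at 50.4 and 167 CPM in the low group, higher in 2 of 2 libraries (log2 1.46 ± 0.23, adjusted p = 5.87e-05). The gap was wide in library 10 and narrower in library 11, with log2 ratios of 2.29 and 0.48 where each library stood alone. The difference was 0.99 without each library's top PRSS2 cell (adjusted p = 0.0215).

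KLK6 was also higher in the Wnt-high cells. It was at 57.7 and 55.5 CPM in the high group and at 38.0 and 34.4 CPM in the low group (log2 0.78 ± 0.21, adjusted p = 0.00796). SPINT2 was at 837 and 768 CPM against 727 and 641 CPM (log2 0.37 ± 0.11, adjusted p = 0.0135), a call lost with library totals alone (log2 0.23, adjusted p = 0.103, edgeR), with thinned cells (0.209) and without the library block (0.0608). PRSS2 and KLK6, which moved in opposite directions between the times, thus both stood higher in the same group of 4 dpi cells. PRSS1 (log2 0.11, adjusted p = 0.917), PRSS3, KLK10, ST14 and SPINT1 were not called.

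These Wnt calls depend on the test. Like the PRSS2 comparison below, the fit rests on 2 libraries, so a very small adjusted p does not stand for wide replication. DESeq2 called none of the members (adjusted p of 0.331 for PRSS2, 0.307 for KLK6 and 0.382 for SPINT2). The mitochondrial share also moved with the groups, with medians of 13.2% and 15.5% in the high and 10.9% and 8.41% in the low group, and its part in the result was not tested beyond a stricter cutoff. With cells under 15% mitochondrial UMIs, the differences were 3.50 for PRSS2, 0.87 for KLK6 and 0.35 for SPINT2, all past the threshold (adjusted p of 9.29e-19, 0.00629 and 0.0250), and PRSS1 was called as well (2.93, adjusted p = 0.000296).

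**Figure D3:**
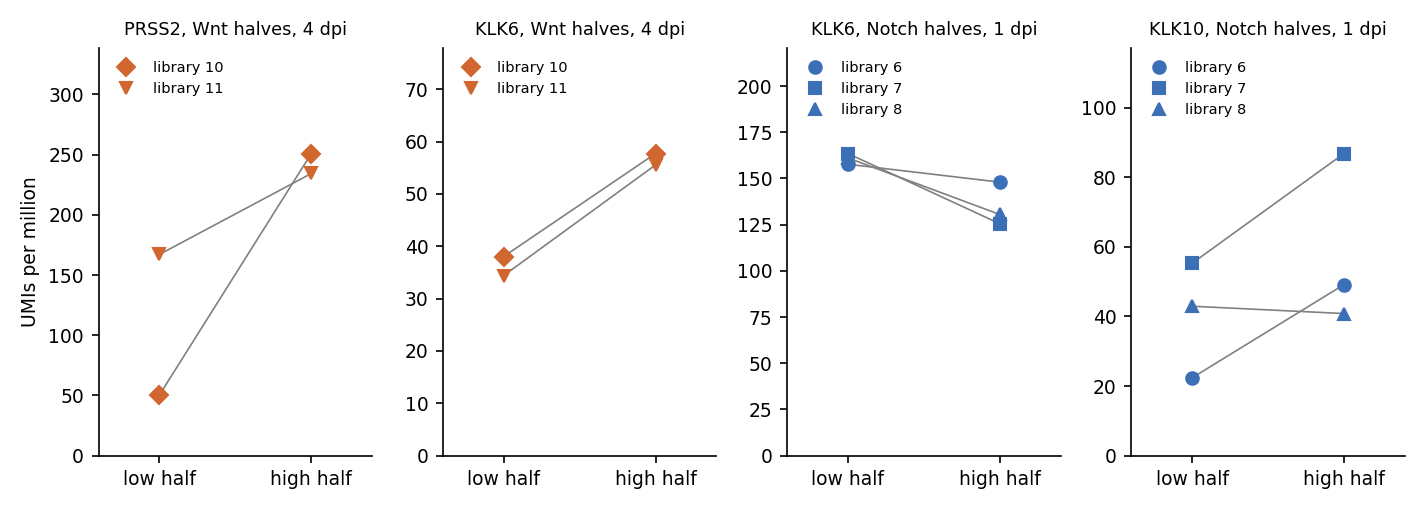
Level of PRSS2 and KLK6 in cells with a low or high Wnt feedback score at 4 dpi, and of KLK6 and KLK10 in cells with a low or high Notch effector score at 1 dpi, in CPM; lines join the groups of cells of 1 library. PRSS2 and KLK6 rise in both 4 dpi libraries from the low to the high Wnt group, KLK6 is lower in the high Notch group of all 3 libraries, and KLK10 is higher in 2 of 3.

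The KLK6 comparison set the 282 cells of 1 dpi with a KLK6 UMI after thinning to 10000 UMIs against the 178 cells without, so that depth did not set the groups. It called 13 of 11450 genes, or 0.114% (2 higher and 11 lower, and 0 and 3 with library totals alone), and KLK6 itself was left out as the gene that made the split. The KLK6-zero cells were not free of KLK6 in the full counts, which were tested. They held 112, 131 and 98 KLK6 UMIs in libraries 6, 7 and 8. This was 46.9, 56.9 and 54.4 CPM, against 207, 211.5 and 203 CPM in the KLK6-positive cells, so the contrast is of lower and higher KLK6. None of the 6 members tested was called. KLK10 was at 45.6, 85.7 and 47.4 CPM in the KLK6-positive and 21.8, 56.5 and 31.1 CPM in the KLK6-zero cells, higher in 3 of 3 libraries, but missed the threshold (log2 0.74 ± 0.14, adjusted p = 0.0686). It passed without library 8 (0.78, adjusted p = 0.000437), where 67 genes were called higher and 96 lower, with no filter on low counts (0.0239) and with groups thinned to 5000 UMIs (0.93, adjusted p = 0.00146). It was 0.24 with more than 1000 genes and 0.23 with thinned cells, neither past the threshold. PRSS2 was at 8.25, 4.05 and 29.0 CPM against 1.26, 4.78 and 0.555 CPM (log2 2.29, adjusted p = 0.229), and passed without library 7 (4.06, adjusted p = 0.0176). ST14, SPINT1, SPINT2 and PRSS3 had log2 differences between -0.12 and 0.09.

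The PRSS2 comparison set the 88 cells of 4 dpi with a PRSS2 UMI after thinning against the 153 cells without, and called 13.8% of 10654 genes. In the full counts the PRSS2-zero cells still held 21 and 32 PRSS2 UMIs in libraries 10 and 11. This was 8.31 and 15.6 CPM, against 419 and 491 CPM in the PRSS2-positive cells. Of the calls 41.4% were higher with TMM scaling and 20.9% with library totals alone, with a shift of the median difference by -0.12. PRSS1 was at 8.90 and 17.8 CPM in the PRSS2-positive cells and at 0.791 and 0.487 CPM in the others (log2 4.28 ± 0.67, adjusted p = 0.000343). In UMIs this was 12 against 2 in library 10 and 26 against 1 in library 11. Only the sums of the PRSS2-positive cells held enough PRSS1 UMIs for the count filter. A call could therefore only go higher, and nothing is read from it. In either library alone the log2 ratio, computed with a prior count and no test, was 2.45 (library 10) and 3.54 (library 11). The 12 UMIs came from 2 cells, and the 26 from 8. Leaving out each library's top PRSS1 cell left 5 against 2 and 11 against 1 UMIs, too few to pass the filter, and with DESeq2 the adjusted p was 0.0558. The part of misplaced PRSS2 reads in this difference was not tested.

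The other members tested were not called in this comparison. KLK6 was at 40.1 and 47.4 CPM in the PRSS2-positive and 52.2 and 42.9 CPM in the PRSS2-zero cells, with a log2 difference of 0.00050 ± 0.21 (adjusted p = 0.999). PRSS3 was at 16.3 and 21.3 CPM against 28.1 and 25.8 CPM (log2 -0.40, adjusted p = 0.378). SPINT2 was at 824 and 758 CPM against 767 and 671 CPM (log2 0.26, adjusted p = 0.0614), and passed without the top SPINT2 cells (0.25, adjusted p = 0.0415). The median mitochondrial share was 15.1% and 14.4% in the PRSS2-positive and 8.86% and 10.5% in the PRSS2-zero cells. Its part in these values was not tested beyond a stricter cutoff. With cells under 15% mitochondrial UMIs, 108 genes were called higher and 239 lower, against 611 and 864 in the main cell set.

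**Figure D4:**
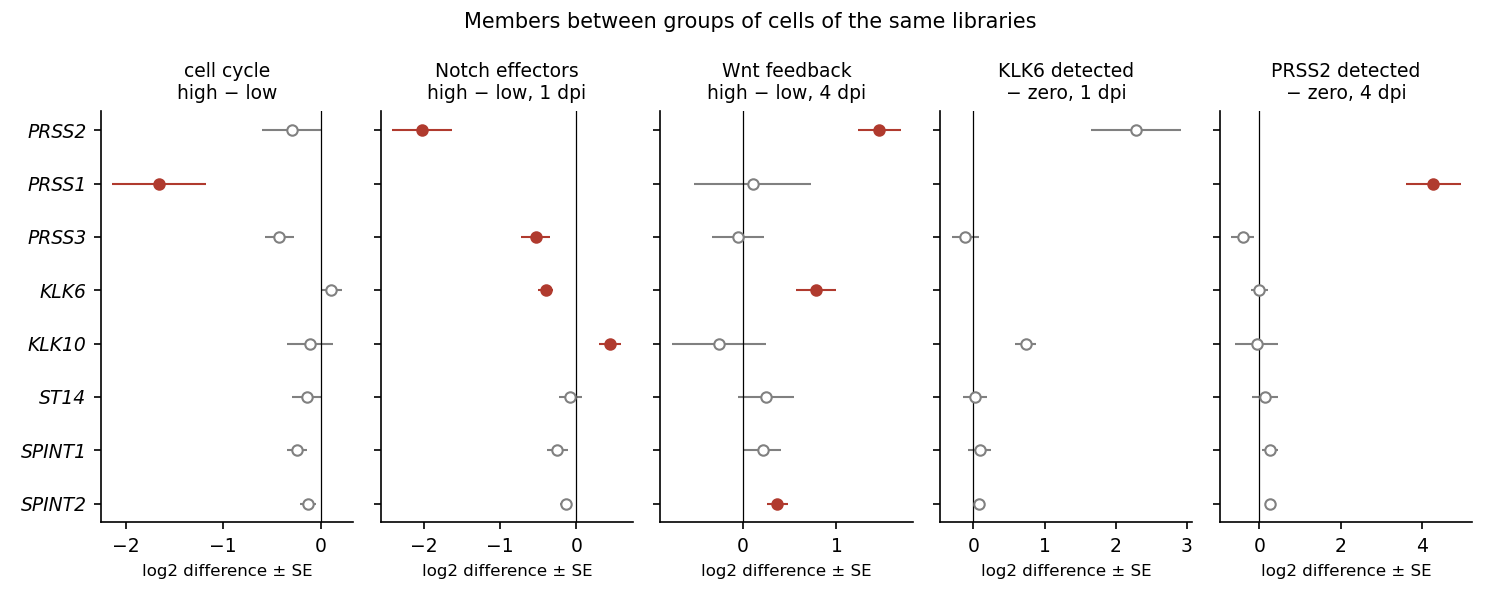
Log2 difference of each tested member between groups of cells of the same libraries, with its standard error (edgeR), for the cell cycle, Notch effector, Wnt feedback, KLK6 and PRSS2 comparisons; red filled points passed an adjusted p of 0.05 and open grey points did not, and the horizontal scale differs between panels. PRSS2 was lower in Notch-high cells of 1 dpi, a call lost without library 8 or without the top PRSS2 cells. It was higher in Wnt-high cells of 4 dpi, and with DESeq2 neither of these PRSS2 differences passed. PRSS1 was higher in PRSS2-positive cells by 4.28, but met the count filter only through those cells, so nothing is read from its call. The part of misplaced PRSS2 reads was not tested.

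Cell by cell, correlations between members were low. Spearman correlations over the cells of 1 library were computed on log-normalized values for the 27 pairs in which both genes had a UMI in at least 10 cells. Of the 105 values, 99 lay within 0.2 of 0. The highest was that of PRSS2 and PRSS1 in library 11, at 0.34 over 161 cells. KLK6 and SPINT2 reached 0.31 in 1 library and averaged 0.10 over 5, and KLK6 and KLK10 averaged 0.07 over 4. Matriptase and its inhibitor SPINT1 averaged 0.11 over 5 libraries. These are descriptions, since cells of a library share its preparation and sparse counts carry little information per cell.

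The genes whose level over cells was most like that of PRSS2 at 4 dpi were GAPDH (mean Spearman 0.40 over libraries 10 and 11, 293 cells), the ribosomal protein gene RPS3 (0.39), PHGR1 (0.38), the receptor gene EPHB6 (0.37) and HNRNPA1 (0.37), among 8965 genes seen in at least 20% of the cells. For KLK6 at 1 dpi they were PLEKHB1 (0.28 over 3 libraries, 533 cells), S100A4 (0.28), and the genes of the sugar metabolism enzymes TPI1 (0.27), GPI (0.26) and TKT (0.25), among 9332 genes. Of those genes, 6.05% exceeded 0.2 for PRSS2 and 0.375% for KLK6. Cells of a library share its preparation and differ in depth (at 4 dpi a median of 26530.5 UMIs in PRSS2-positive and 17889 in PRSS2-negative cells), so these values are a description.

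In the wells that failed the filter, PRSS2 had the same order between the times. The 318 failed wells of 4 dpi with at least 200 genes held 100 PRSS2 UMIs, or 72.6 CPM, and the 289 of 1 dpi held 1 UMI, or 2.48 CPM. The wells with under 200 genes, a measure of stray RNA, held 4 PRSS2 UMIs at 4 dpi (142 CPM) and 0 at 1 dpi, so the part of stray RNA in the failed wells was not tested. KLK6 was at 127 CPM in the failed wells of 1 dpi and 28.3 CPM in those of 4 dpi. These wells were not part of the selection rule, although they come from the same plates.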

How the data were processed

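The authors sorted single SW480 cells into 384-well plates, sequenced SORT-seq libraries, took well barcodes and UMIs from read 1 and mapped read 2 of 60 bases to the human transcriptome. The deposited tables hold unnormalized UMI counts for each gene in each well, with plates kept apart. The submitters' processing notes name BWA and hg38, and the BWA version and the annotation were not given in the sources used here.

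Cells with more than 2000 genes (spike-ins included in this filter alone) and under 25% mitochondrial UMIs were kept. No doublet caller was run, since FACS placed 1 cell in a well. Genes listed in all libraries and seen in at least 10 wells entered the tests. UMIs were summed per library, or per library and group of cells, and tested with edgeR 4.0.16 (quasi-likelihood test, TMM, filterByExpr, Benjamini-Hochberg over all genes tested, threshold 0.05) in R 4.3.3, with the library as a block within libraries. KLK6 and PRSS2 had no test in the comparison they defined. Phase genes came from Seurat 5.3.0. Groups were cut at each library's median score, or by a UMI after thinning to 10000 UMIs. Exact binomial intervals (scipy 1.17.1, Python 3.11.15) cover counting error only, and 0 UMIs were given a floor of 3 counts. Scripts were tested on simulated data.

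The members and lists were chosen with earlier results of these data known. Genes named were the members, the 3 called genes with the largest change per list, and the 5 genes most correlated with PRSS2 or KLK6. Some genes that this rule would name are not reported here. Alternatives were DESeq2 1.42.0, other size factors, no filter on low counts, other cell filters, thinning, other groups, no library block, the flow cell as a term and leaving out each library. Leaving out each library's top cell and scaling by library totals alone were chosen after seeing the data. The libraries of a time point may be technical replicates of a pool, in which case p-values measure technical spread only.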

Additional observations from a re-analysis of the deposited data

How the results depend on the processing

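Of the changes of members between the times, log2 values over all alternatives ran from 4.01 to 5.33 for PRSS2, -1.73 to -1.46 for KLK6 and -3.23 to -2.56 for KLK10. No paired analysis was possible because the libraries of the 2 time points share no replicate number, and the flow cell as a term changed no member's direction. The cause of the changes below was not tested. With DESeq2, genes called higher and lower numbered 647 and 396 by cell cycle (1015 and 855 in edgeR), 1596 and 1474 by Notch score (2877 and 2719), 178 and 359 by Wnt score (1404 and 1625), and 26 and 69 by PRSS2 (611 and 864), and 1 was higher by KLK6 (2). With cells thinned to 5000 UMIs they were 587 and 565 between the times (1695 and 1789), 340 and 197 by cell cycle, 934 and 771 by Notch score, 507 and 517 by Wnt score, and 171 and 173 by PRSS2, and 1 was higher by KLK6. Under 15% mitochondrial UMIs they were 655 and 417 by cell cycle, 0 and 7 by KLK6, and 108 and 239 by PRSS2. With library totals alone, added after seeing the data, they were 1782 lower by Notch score, 0 and 3 by KLK6, and 400 and 1515 by PRSS2. Low-cycling cells gave 621 and 679 between the times, and the outer tertiles of the Wnt score 2243 higher. Without the library block they were 506 and 182 by cell cycle, 0 and 1 by KLK6, and 210 and 455 by PRSS2. For KLK6 no filter on low counts gave 14 and 33, cells with more than 1000 genes 6 lower (11), groups without thinning 19 and 23, and groups thinned to 5000 UMIs 8 and 17. For PRSS2 groups without thinning gave 376 higher, and groups thinned to 5000 UMIs 229 and 462. Leaving out 1 library gave 525 to 718 genes lower by cell cycle, 5 to 67 higher by KLK6 and 8 to 96 lower by KLK6. Reversed log2 differences, besides KLK6 by Notch score (0.0593 when thinned), were of members not called. By cell cycle these were PRSS2 (0.0617 without the top cells, -0.71 to 0.51 leaving out a library), KLK10 (0.0363 between outer tertiles, 0.0124 without the block, -0.57 to 0.20 leaving out a library) and ST14 (0.0165 under 15% mitochondrial UMIs, 0.50 thinned). By Notch score they were SPINT2 (0.0129 with library totals) and ST14 (0.0741 with library totals, 0.0543 under 15% mitochondrial UMIs, -0.15 to 0.0181 leaving out a library). By Wnt score they were PRSS1 (-0.0336 without the block, -0.0372 with library totals) and PRSS3 (0.0714 without the top cells), and, with no test, PRSS1 in library 11 alone (-1.22) and KLK10 and ST14 in library 10 alone (0.30 and -0.32). By KLK6 they were PRSS3 (0.52 thinned, 0.19 with groups thinned to 5000 UMIs, -0.30 to 0.0014 leaving out a library), ST14 (-0.39 with more than 1000 genes, -0.23 under 15% mitochondrial UMIs, -0.12 to 0.21 leaving out a library) and SPINT1 (-0.0252 under 15% mitochondrial UMIs, -0.0732 to 0.34 leaving out a library). By PRSS2 they were PRSS3 (0.0282 under 15% mitochondrial UMIs), KLK10 (0.28 with more than 1000 genes) and KLK6 (-0.12 with library totals, -0.0074 without the count filter, -0.0748 without thinning of groups, -0.0493 with groups thinned to 5000 UMIs, -0.0041 without the block, -0.0708 without the top cells), and, with no test, KLK6, ST14 and SPINT1 in library 10 alone (-0.37, -0.66 and -0.0558). Leaving out 1 of the 4 dpi libraries left no test within 4 dpi. KLK7, KLK8 and PRSS1 are limited by depth, with 14, 46 and 78 UMIs in all.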
